A study of Mus musculus with 6 samples.

Results

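Mertk, Axl, Gas6 and Pros1, the genes of the TAM receptors and their ligands, were followed in cortical microglia of mice with floxed alleles of the autophagy gene Atg7, with and without an inducible Cre. The 4 members were taken by gene symbol, and each matched 1 of the 55487 gene identifiers in the table. All 4 passed the filter on low counts, as did 15787 genes in all.

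There were 6 libraries from female mice aged 20 months, 3 in each group. Controls were Atg7-fl/fl, which carry floxed Atg7 alleles and no Cre. Knockouts were Atg7-fl/fl;Cx3cr1-CreERT2, which carry the same floxed alleles and a tamoxifen-dependent Cre recombinase expressed from the locus of the fractalkine receptor Cx3cr1. That locus is active in microglia and in other myeloid cells. Since no control carried Cre, the effect of the Cre allele and that of Atg7 loss cannot be told apart. The labels used here give no tamoxifen dose or time. Live cells with intermediate CD45 and with CD11b were sorted from the cortex, and their bulk RNA was sequenced. The labels number the libraries as biological replicates and do not say how many mice each holds.

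TAM receptors are the tyrosine kinases TYRO3, AXL and MERTK. They do not bind dying cells directly. Their ligands GAS6 and protein S, the product of Pros1, bind phosphatidylserine exposed on dying cells and membrane debris through a vitamin K-dependent domain and link it to the receptor. GAS6 activates every TAM receptor, whereas protein S acts through TYRO3 and MERTK. In macrophages and microglia these receptors drive the engulfment of apoptotic cells and dampen cytokine and interferon receptor signalling. MERTK is the main TAM receptor of resting microglia, and AXL is known to rise in activated and disease-associated microglia.

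Of the 6 libraries, 4 had 21282335 to 39389527 reads. Control 3, with 1254380, and knockout 2, with 3789208, are called the shallow libraries below. Values of a gene are listed for replicates 1, 2 and 3 of each group in turn. Levels are CPM (reads of a gene relative to the total reads of its library), scaled by edgeR's TMM factors. Atg7 averaged 62.9 CPM ± 5.46 (SD, n = 3) in controls and 25.1 CPM ± 1.39 in knockouts, and fell by 1.33 on the log2 scale (edgeR adjusted p = 0.0147). With any 1 library other than control 3 left out, the adjusted p of Atg7 was 0.0527 to 0.135. Atg7 reads thus remained in the knockouts, and gene-level counts do not show whether they span the floxed part. Cx3cr1, whose locus carries the Cre, fell by 1.17 on the log2 scale (edgeR adjusted p = 0.00126). The sorted cells carried their defining markers: 10 of 10 microglia markers were tested and summed to 49772 to 62120 CPM per library. Of these 9 were below 0 in log2 fold change. An unadjusted edgeR p below 0.05 was found for 3 (0 called), beside 4.32% of all genes tested. The sum was lower in every knockout than in every control, but knockout 1 (55326 CPM) and the shallow control 3 (55354 CPM) were nearly level. The sums of 6 lymphocyte markers did not exceed 1.299 CPM, and Ncr1 was at 0 reads in every library. Astrocyte markers summed to 277 to 371 CPM, mostly from Slc1a3, oligodendrocyte markers to 211 to 256 CPM and endothelial markers to 35.8 to 84.9 CPM. The ranges of the groups overlapped in each. Pericyte and smooth muscle markers, near the floor, summed to 0.447, 0.565 and 0 CPM among controls, against 3.23, 1.56 and 2.14 CPM among knockouts. These sums, like those of the lymphocyte markers, were higher in every knockout than in every control. Both sums were 0 CPM in control 3, where 3 reads, the limit that a count of 0 allows, are 2.36 CPM. That limit exceeds the lymphocyte sum of every knockout and the pericyte sums of knockouts 2 and 3. Against these, the depth of control 3 cannot show that it was lower.

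Mertk and Pros1 were abundant transcripts, Axl and Gas6 lower ones. Mertk ranked at position 220 and Pros1 at position 164 by mean level among the 15787 genes tested, whereas Axl ranked at position 2509 and Gas6 at position 3929. To compare genes with each other, CPM was divided by exonic length in GENCODE M21. In the controls Pros1 then stood at 180 CPM per kb ± 12.5 (SD, n = 3), Mertk at 132 ± 11.9, Gas6 at 13.6 ± 3.51 and Axl at 9.87 ± 3.53. In the knockouts the same levels per kb were 184 ± 24.1 for Pros1, 130 ± 18.9 for Mertk, 15.5 ± 1.23 for Gas6 and 15.0 ± 3.11 for Axl. Pros1 lay above Mertk in every library, with a ratio per kb between 1.19 and 1.64. The order of Gas6 and Axl was not fixed: Gas6 was the higher per kb in controls 1 and 2 and knockout 3, and Axl in control 3 and knockouts 1 and 2.

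The members' upstream sequences are shown to compare how the family's start regions are built. All 4 members matched the RefSeq promoter table of GRCm38.p6, an assembly that precedes the GRCm39 named in the submitters' processing notes. The stretches run 5′ to 3′ on the gene's strand and end at the outermost RefSeq start, and capitals mark the GC box, GGGCGG on either strand, a binding motif of SP and KLF factors.
Mertk, chr2:128698715-128698914, plus strand: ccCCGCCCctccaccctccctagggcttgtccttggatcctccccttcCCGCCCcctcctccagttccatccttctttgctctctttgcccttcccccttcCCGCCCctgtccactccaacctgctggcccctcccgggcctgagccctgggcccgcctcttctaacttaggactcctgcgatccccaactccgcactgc
Pros1, chr16:62854107-62854306, plus strand: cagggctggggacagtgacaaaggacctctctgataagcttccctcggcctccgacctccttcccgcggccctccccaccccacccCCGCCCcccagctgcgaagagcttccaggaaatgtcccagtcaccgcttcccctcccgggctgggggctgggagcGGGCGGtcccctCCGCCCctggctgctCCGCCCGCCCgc
Gas6, chr8:13494536-13494735, minus strand: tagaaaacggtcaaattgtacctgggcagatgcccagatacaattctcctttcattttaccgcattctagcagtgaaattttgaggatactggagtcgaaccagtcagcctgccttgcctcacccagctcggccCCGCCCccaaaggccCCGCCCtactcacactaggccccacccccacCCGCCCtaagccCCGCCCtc
Axl, chr7:25788925-25788983, minus strand: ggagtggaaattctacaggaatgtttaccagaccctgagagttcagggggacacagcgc
Axl has a further RefSeq start inside its table window, so 59 of its bases are printed. Over the 250 bases upstream of the table's start, the GC box occurred 3 times for Mertk, 5 times for Pros1, 4 times for Gas6 and once for Axl. It was present in 32.7% of the 32851 windows of this length. The motif GAGGAAGT of the myeloid factor PU.1 (2.44% of windows), the core of the interferon-stimulated response element (2.98%) and the DR4 element of liver X receptors (0.0152%), each searched on both strands, were not among the letters of the 4 windows. A match is a description of the letters, and the table gives no binding.

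The main comparison asked how the TAM genes differ between the knockout and control libraries. None of the 4 members was called by edgeR's quasi-likelihood test at an adjusted p under 0.05, where 0.0443% of all genes were called (0.0317% higher, 0.0127% lower). At an unadjusted p under 0.05, 1 member (Axl) was higher and 0 were lower, against 4.32% of all genes in either direction, and DESeq2 and limma voom, which called 0.527% and 0.095% of genes, called 0 members. The groups overlapped in all 4 members, whereas they did not overlap in 11.1% of the genes tested. The median log2 fold change of the members was 0.11, beside 0.02 over all genes. In bulk RNA, a difference in the share of cells with a transcript and one in RNA per cell cannot be told apart.

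**Figure D1:**
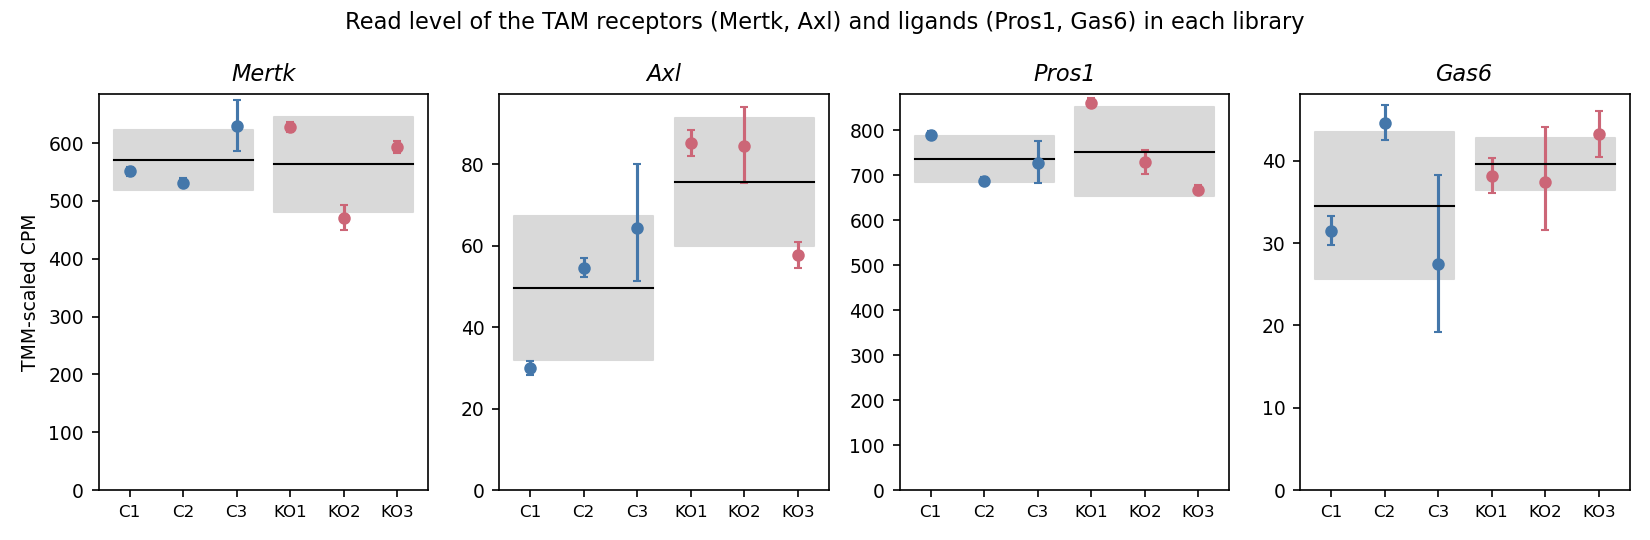
Level of each member (TMM-scaled CPM, axis from 0) in controls C1 to C3 (blue) and knockouts KO1 to KO3 (red), with exact Poisson 95% intervals for counting error, the group mean as a line and 1 SD as the grey band. Only Axl has group means that stand well apart (49.7 and 75.7 CPM), and its knockout KO3 lies between the controls C2 and C3.

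Mertk (ENSMUSG00000014361), the main TAM receptor of resting microglia, had 551, 532 and 629 CPM among controls, against 627, 471 and 593 CPM among knockouts. The highest and the lowest library, control 3 and knockout 2, were the shallow ones, and the groups overlapped. The means were 571 CPM ± 51.7 (SD, n = 3) and 564 CPM ± 82.1. Its log2 fold change was -0.02 (SE 0.15, 95% interval -0.33 to 0.30, edgeR adjusted p = 0.999). The difference between the groups was smaller than the spread within either. Without both shallow libraries it was 0.17 (SE 0.12, edgeR adjusted p = 0.888), so the sign of this small value was not fixed.

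Axl (ENSMUSG00000002602), the receptor known for its rise in activated microglia, had 29.9, 54.6 and 64.4 CPM among controls, against 85.2, 84.4 and 57.6 CPM among knockouts. Control 1 was the lowest library, knockouts 1 and 2 the highest, and control 3 lay above knockout 3. Counting error was wide in control 3, where 82 reads gave an exact Poisson 95% interval of 51.2 to 80.0 CPM. It was narrow in control 1, where 1139 reads gave 28.2 to 31.7 CPM, so the controls differed from each other by more than their counts allow. PCR reads without molecular identifiers are not independent molecules, and such intervals cover counting error only.

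The means of Axl were 49.7 CPM ± 17.8 (SD, n = 3) and 75.7 CPM ± 15.7, a log2 fold change of 0.63 (SE 0.27, 95% interval 0.05 to 1.21). The unadjusted p was 0.0343 and the edgeR adjusted p was 0.999, so the difference was not called. Among the 3178 genes whose mean level was within a factor of 2 of Axl's, 2.74% had a larger fold change in either direction. The estimate rested in part on control 1: without it the value was 0.36 (SE 0.24, edgeR adjusted p = 0.998). Without control 3, the only control that lay above a knockout, it was 0.83 (SE 0.27, edgeR adjusted p = 0.429). With neither shallow library it was 0.75 (SE 0.29, adjusted p = 0.621).

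Border-associated macrophages are the macrophages of the meninges and perivascular spaces. Their summed markers, like Axl, were lowest in control 1 and highest in knockouts 1 and 2. All 10 of these markers were tested, none was at 0 reads in all libraries, and all 10 had fold changes above 0. EdgeR called 0 of them and DESeq2 4, beside 0.0443% and 0.527% of all genes. Lyve1 and Folr2 were at 0 reads in control 1, and Pf4 and Clec10a in control 3. The 10 markers summed to 17.5, 41.5 and 87.2 CPM among controls, against 280, 176 and 68.1 CPM among knockouts. From lowest to highest, the 6 libraries stood in the same order by this sum as by Axl: control 1, control 2, knockout 3, control 3, knockout 2, knockout 1. None of the other 3 members gave that order, and no other cell type's marker sum stood in the order of any member. The neutrophil and monocyte sums departed from the Axl order only in that knockout 3 came before control 2. By Axl, the exact Poisson 95% intervals of control 2 (52.2 to 57.0 CPM) and knockout 3 (54.5 to 61.0 CPM) overlapped, so the match was not particular to border-associated macrophages. Counting error left the order by Axl open. In control 3 its exact Poisson 95% interval, 51.2 to 80.0 CPM, held the values of control 2 and knockout 3. In control 3 the sum was mostly the mannose receptor gene Mrc1 (58.1 CPM from 74 reads), and without Mrc1 the order differed, with control 3 at 29.1 CPM below control 2 at 31.2 CPM and knockout 3 at 42.6 CPM.

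Neutrophil and monocyte markers were likewise lowest in control 1 and highest in knockouts 1 and 2. Of the neutrophil markers 5 of 6 were tested, and the sums were 41.9, 316 and 372 CPM among controls, against 1720, 559 and 124 CPM among knockouts. Of the monocyte markers 6 of 8 were tested, with sums of 10.0, 38.0 and 47.9 CPM among controls and of 145, 65.7 and 20.9 CPM among knockouts. Ly6g, a defining neutrophil gene, was at 0 reads in controls 2 and 3 and knockout 2. Microglia markers summed to 62120, 60144 and 55354 CPM among controls, against 55326, 49772 and 51604 CPM among knockouts. The gate on intermediate CD45 is meant to leave out cells with high CD45, such as neutrophils and monocytes. The part of these cells and of border-associated macrophages in the Axl values was not tested.

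**Figure D2:**
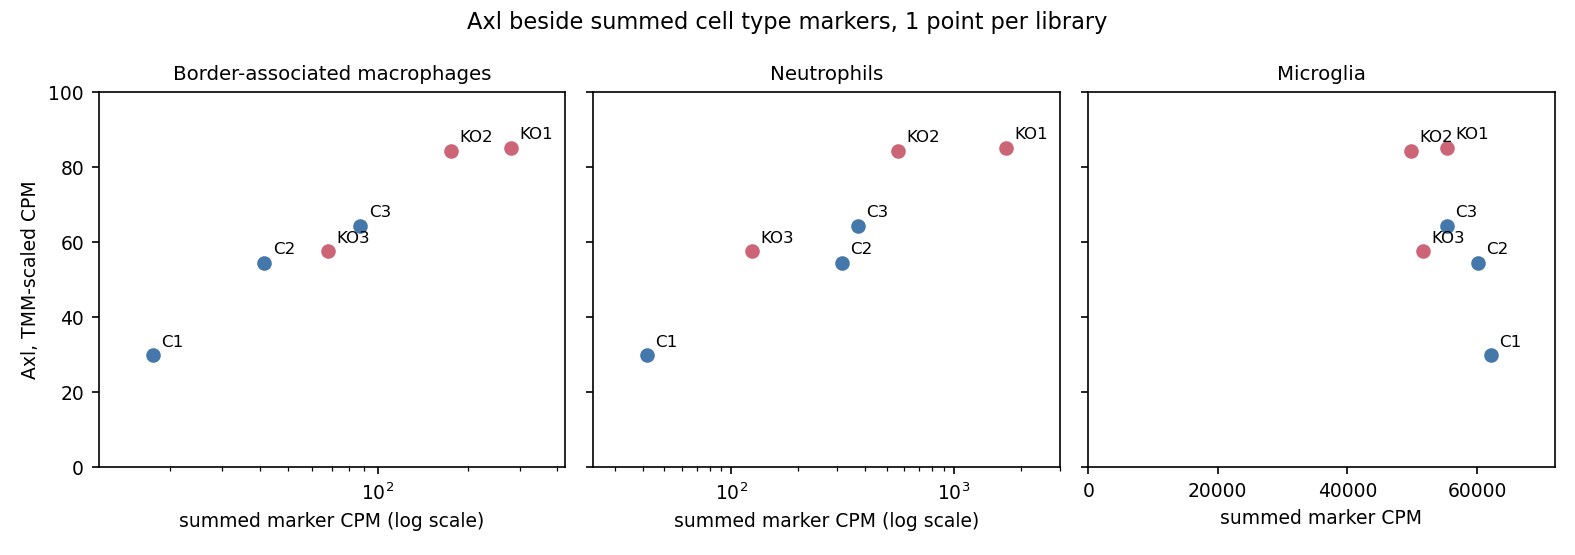
Axl (TMM-scaled CPM, vertical axis from 0) against the summed CPM of border-associated macrophage markers, neutrophil markers (both on log axes) and microglia markers (linear axis from 0), with 1 point per library, controls in blue and knockouts in red. The libraries have the same order by Axl and by the border macrophage sum, from C1 (29.9 and 17.5 CPM) to KO1 (85.2 and 280 CPM). No other cell type's marker sum matched the order of any member. The neutrophil and monocyte sums departed from the Axl order only in that KO3 came before C2. The match of the border macrophage sum did not hold without Mrc1, where C3 (29.1 CPM) lay below C2 and KO3.

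The balance between the expressed receptors varied with Axl. As a share of Mertk plus Axl per kb, Axl made up 4.47%, 8.12% and 8.10% among controls, against 10.47%, 13.4% and 7.73% among knockouts. Knockout 3 lay below controls 2 and 3, so the groups overlapped, and Mertk was at least 6.48 times Axl per kb in every library. This share is a ratio of values already given and was not tested.

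Tyro3, the gene of the TAM receptor that is prominent in neurons, was close to absent. It had 2 reads in control 1, 2 in control 2 and 0 in each of the other 4 libraries. The limit that a count of 0 allows (3 reads) was 2.36 CPM in control 3 and 0.0888 CPM in knockout 1, so in the shallow libraries the depth shows little. Tyro3 did not pass the filter and was not tested.

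Pros1 (ENSMUSG00000022912), the ligand gene for protein S, had 789, 687 and 728 CPM among controls, against 860, 729 and 668 CPM among knockouts. The knockouts held both the highest and the lowest library. The means were 735 CPM ± 51.1 (SD, n = 3) and 752 CPM ± 98.5, a log2 fold change of 0.03 (SE 0.14, 95% interval -0.26 to 0.33, edgeR adjusted p = 0.999). The group difference was smaller than the spread within each group, and it was 0.04 without both shallow libraries.

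Gas6 (ENSMUSG00000031451), the ligand gene that serves all TAM receptors, had 31.5, 44.6 and 27.5 CPM among controls, against 38.2, 37.4 and 43.2 CPM among knockouts. All 3 knockouts lay between control 1 and control 2. The lowest value rested on 35 reads in control 3 (exact Poisson 95% interval 19.2 to 38.2 CPM). The means were 34.5 CPM ± 8.93 (SD, n = 3) and 39.6 CPM ± 3.14, a log2 fold change of 0.18 (SE 0.22, 95% interval -0.29 to 0.65, edgeR adjusted p = 0.999). It was 0.42 without control 2 and 0.05 without control 3, and neither was called (edgeR adjusted p = 0.9999 and 0.990). Of the exonic bases of Gas6, 1.33% are shared with Tmem255b, while Mertk, Axl and Pros1 share none with another gene.

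Between the ligands, protein S transcripts prevailed. Gas6 made up 6.02%, 9.42% and 5.72% of Gas6 plus Pros1 per kb among controls, against 6.65%, 7.61% and 9.40% among knockouts. The groups overlapped over nearly the whole range.

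The genes most alike to each member were sought among 7583 protein-coding genes with a mean of at least 10 CPM, by the root mean square difference of centred log2 CPM over the 6 libraries. For Axl these were Ly6a (0.18), Cd44 (0.19) and S100a1 (0.22). Ly6a and Cd44 encode surface proteins, the latter the hyaluronan receptor of leukocytes, and only 2 genes came within 0.20 of Axl. The steadier members had many near neighbours: 1750 genes came within 0.20 of Mertk, 1886 of Pros1 and 1000 of Gas6. The nearest were Trappc8, Anp32e and Kars for Mertk, St3gal6, Cbll1 and Vdac3 for Pros1, and Pgam1, Tspan32 and Brap for Gas6. These are descriptions over 6 libraries that differ in group and depth alike for every gene.

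The genes around the TAM system were read from lists of related genes. With all 6 libraries, edgeR called 0 genes in every one of these lists. Beside TYRO3, the partner list held the alternative ligands, the proteases that shed the receptors and the vitamin K cycle. Of 9 partners 7 were tested, with 2 above 0 and a median log2 fold change of -0.07, beside 52.5% of all genes above 0 and a median of 0.02. Unadjusted edgeR p-values below 0.05 were found for 1 higher and 0 lower genes, beside 370 higher and 312 lower among all 15787 genes tested. DESeq2 and voom called 0.

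Lgals3, which encodes galectin-3, a lectin that also binds MERTK, had 16.0, 35.8 and 14.9 CPM among controls, against 48.5, 40.5 and 30.9 CPM among knockouts. Knockout 3 lay below control 2, and the difference was 0.80 on the log2 scale with SE 0.32 (edgeR adjusted p = 0.999). Ggcx, the carboxylase that activates the ligands' phosphatidylserine-binding domain, had 50.1, 50.4 and 69.1 CPM among controls, against 43.2, 35.6 and 48.4 CPM among knockouts. Its 3 knockouts lay below its 3 controls, as in 4.47% of all genes tested, with a difference of -0.40 on the log2 scale with SE 0.21 (edgeR adjusted p = 0.999). The shedding proteases Adam10 and Adam17 differed by -0.07 (SE 0.15) and -0.08 (SE 0.17) on the log2 scale.

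Downstream signalling and engulfment genes gave no call. Of 20 genes 18 were tested, 6 were above 0, and the median log2 fold change was -0.07. By edgeR, unadjusted p-values lay below 0.05 for 0 higher and 0 lower genes, and DESeq2 and voom called 0. On the log2 scale the kinase gene Akt2 differed by -0.40 (SE 0.22), the phospholipase genes Plcg2 and Plcg1 by -0.20 (SE 0.18) and -0.22 (SE 0.24), and the GTPase gene Rac1, which drives the phagocytic cup, by 0.22 (SE 0.21).

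TAM signalling restrains cytokine receptors by working with the type I interferon receptor and inducing the suppressors SOCS1 and SOCS3. Of 10 genes in this list 8 were tested, 2 were above 0, and the median log2 fold change was -0.13. Unadjusted edgeR p-values below 0.05 were found for 0 higher and 1 lower genes, DESeq2 called 1 lower (0.527% of its genes were called) and voom 0. That gene was Ifnar2, an interferon receptor subunit, with 128, 132 and 59.7 CPM among controls, against 55.6, 66.8 and 51.3 CPM among knockouts. Control 3 lay within the knockouts and away from the other controls. The log2 fold change was -0.90 (SE 0.26), with an adjusted p of 0.665 in edgeR, 0.0278 in DESeq2 and 0.0659 in voom. Ifnar1, the partner subunit, chosen after its value was seen, differed by 0.0021 on the log2 scale (SE 0.17). Socs3 had 22.8, 16.9 and 9.43 CPM among controls, against 8.88, 12.5 and 10.3 CPM among knockouts, or -0.70 on the log2 scale with SE 0.34 (edgeR adjusted p = 0.999). As in Ifnar2, control 3 lay among the knockouts. Without both shallow libraries edgeR called 1 gene of this list lower, beside 30 of the 16816 genes tested in that setting. The list's median was then -0.03. The transcription factor gene Stat3 differed by -0.14 (SE 0.17) on that scale.

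Liver X receptors and their retinoid partners induce Mertk in macrophages. Of 9 genes for these nuclear receptors and LXR targets 8 were tested, 7 were above 0, and the median log2 fold change was 0.08. No gene passed an unadjusted p under 0.05 in edgeR (0 higher, 0 lower), and DESeq2 and voom called 0. Without both shallow libraries 3 of 9 were above 0 and the median was -0.02. The cholesterol exporter gene Abca1 had 179, 214 and 198 CPM among controls, against 241, 215 and 229 CPM among knockouts, without overlap, as in 6.59% of all genes with knockouts higher. Its log2 fold change was 0.21 (SE 0.15). On that scale the receptor genes Nr1h2 and Rxrb and the LXR target Mylip differed by 0.30 (SE 0.25), 0.21 (SE 0.28) and 0.11 (SE 0.18).

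Other receptors and bridging molecules for phosphatidylserine were also read. Of 22 genes 18 were tested, 8 were above 0, and the median log2 fold change was -0.03. By edgeR, unadjusted p-values lay below 0.05 for 1 higher and 0 lower genes, and DESeq2 and voom called 0. Cd300lb, a lipid-binding immune receptor gene, had 5.99, 9.30 and 9.43 CPM among controls, against 27.0, 7.53 and 15.1 CPM among knockouts, so that knockout 2 lay among the controls (log2 fold change 1.06, SE 0.43). Mfge8, which bridges phosphatidylserine to integrins, had 101, 99.3 and 88.8 CPM among controls, against 68.6, 66.2 and 92.1 CPM among knockouts, with knockout 3 above control 3 (log2 fold change -0.35, SE 0.18). With neither shallow library 10 of 18 genes were above 0 and the median was 0.04. The integrin gene Itgb3 differed by 0.35 on the log2 scale (SE 0.21), while Timd4, a phosphatidylserine receptor gene of resident macrophages, was near the floor. Timd4 stood at 0, 1.13 and 0 CPM in controls and at 2.87, 0.519 and 2.60 CPM in knockouts, and no fold is given.

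Genes that expose phosphatidylserine on the cell surface, the scramblases and flippases, had 6 of 7 members tested, 1 above 0 and a median log2 fold change of -0.21. Unadjusted edgeR p-values below 0.05 were found for 0 higher and 0 lower genes, and DESeq2 and voom called 0. Without both shallow libraries 3 of 6 were above 0 and the median was -0.10. Tmem30a, the flippase subunit gene, differed by -0.51 on the log2 scale (SE 0.41), and the scramblase genes Ano6 and Xkr8 and the flippase gene Atp11a by -0.19 (SE 0.19), -0.16 (SE 0.29) and -0.24 (SE 0.40).

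Axl is an interferon-inducible gene in macrophages, and 15 of 15 interferon response genes were tested. Of these 9 were above 0, with a median log2 fold change of 0.08. By edgeR, unadjusted p-values lay below 0.05 for 0 higher and 0 lower genes, and DESeq2 and voom called 0. On the log2 scale Oasl2, an antiviral gene, differed by -0.67 (SE 0.33), and Oas1a, its relative, by -0.38 (SE 0.56). Irf7, which amplifies the response, differed by -0.41 (SE 0.53) and the antiviral gene Rsad2 by 0.56 (SE 0.55). With neither shallow library 12 of 15 were above 0 and the median was 0.24. The summed level was 320, 590 and 565 CPM among controls, against 508, 424 and 526 CPM among knockouts. Control 1 was thus the lowest library for this sum and for Axl, while knockout 2 was second lowest for the sum and second highest for Axl.

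**Figure D3:**
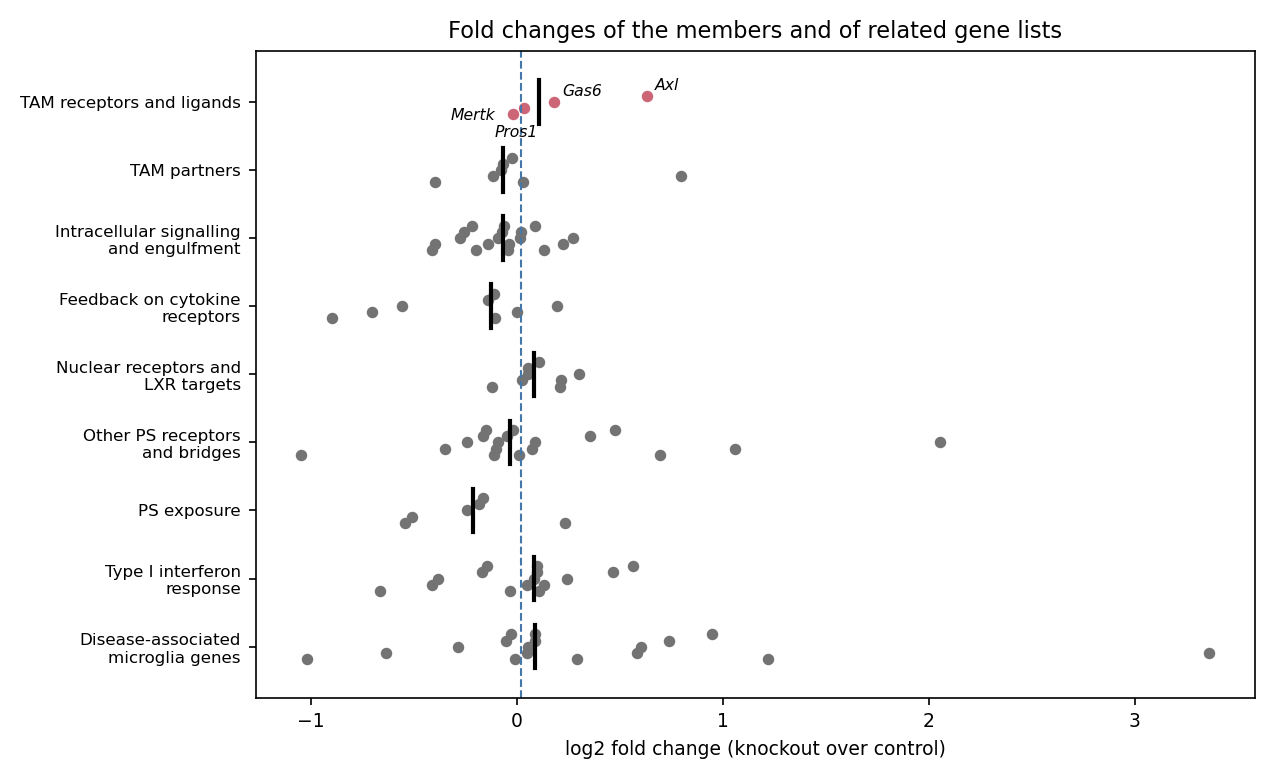
Log2 fold change (knockout over control) of each tested gene, with the 4 members in red and the genes of 8 related lists in grey, PS standing for phosphatidylserine. The black bar is the list's median and the dashed line the median of all genes tested (0.02). All list medians lie between -0.21 and 0.11.

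The members' fold changes were recomputed under 18 other settings of tool, scaling, filter, depth and libraries. Axl was above 0 in all 18, from 0.36 to 0.91, with adjusted p-values of 0.363 or more. Gas6 was above 0 in all 18, from 0.05 to 0.42. Mertk ranged from -0.12 to 0.17 and Pros1 from -0.09 to 0.10, each with values on both sides of 0. None of the 4 members was called under any of these settings.

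**Figure D4:**
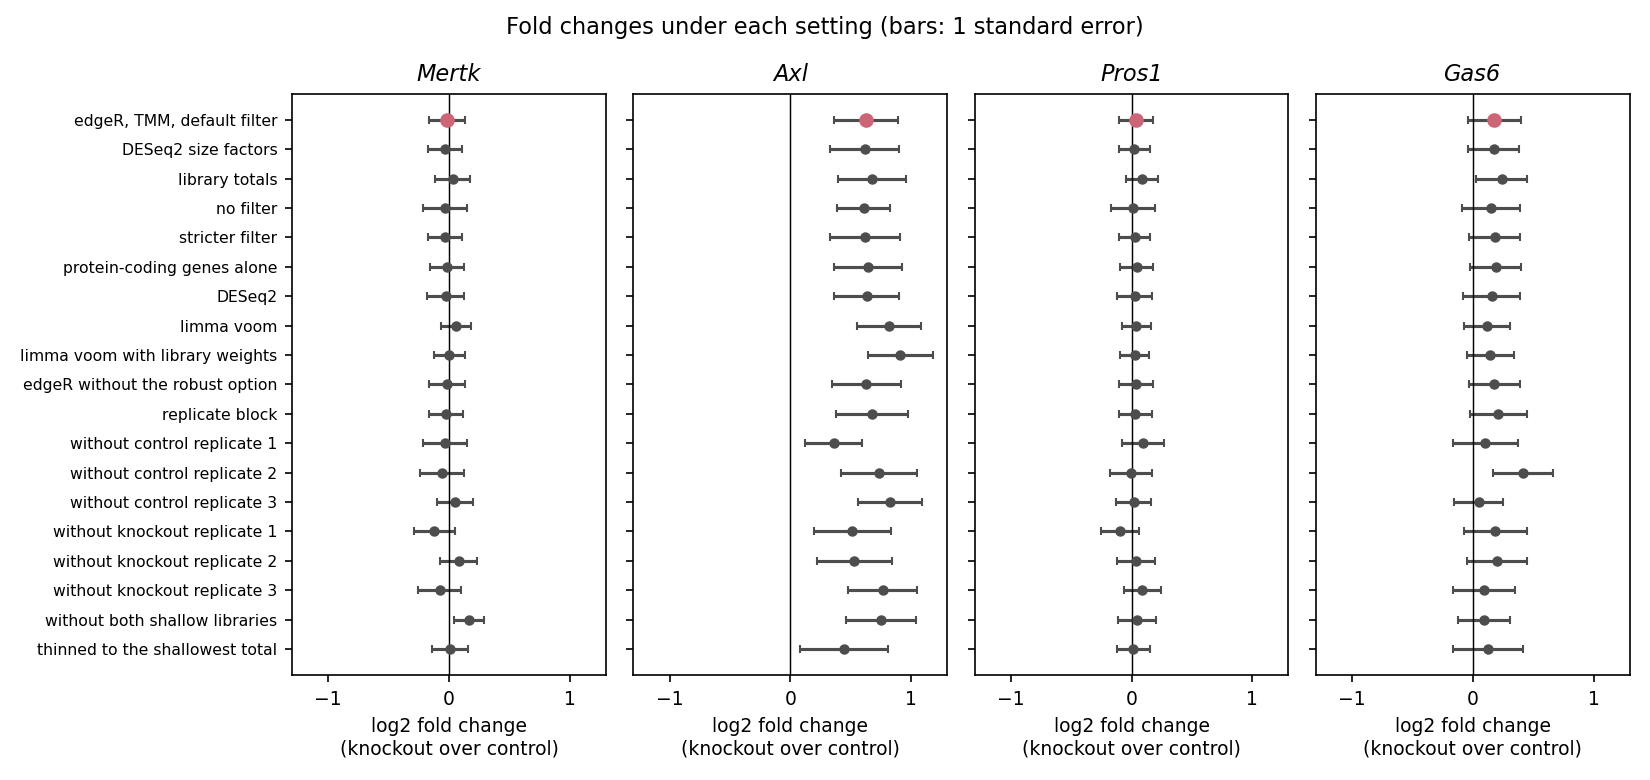
Log2 fold change (knockout over control) of each member under the edgeR fit reported here (red) and 18 alternatives (grey), with bars of 1 standard error. Axl stays between 0.36 and 0.91, and Mertk and Pros1 lie close to 0 on either side.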

How the data were processed

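Values in the deposited table are raw read counts for each gene, whole numbers with no normalization, per the file headers and the values. The submitters' processing notes name STAR, featureCounts of Subread, Salmon and bcl2fastq, and the build GRCm39, with no roles. The annotation release and the strand setting are not given in the sources used here. Of 55774 rows, 287 repeated an identifier with the same counts and were left out. 0 rows named no gene, and 0 columns belonged to other samples. Per the labels' protocols, cDNA was made from 10 ng of RNA.

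Genes were kept by edgeR's default filter (edgeR 4.0.16, R 4.3.3), scaled by TMM and tested with a robust quasi-likelihood F-test with the group as the only term. Benjamini-Hochberg adjustment ran over all 15787 genes tested, with calls at adjusted p-values below 0.05. Each standard error is the fold change over the root of its F statistic. Alternatives included DESeq2 1.42.0 and limma 3.58.1 (voom), other scalings and filters, thinning and left-out libraries. The steps were tested on simulated data.

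The members and gene lists were chosen with earlier results of these data known. Named genes were the members, Atg7, Cx3cr1, Tyro3 and, in each list, up to 4 with the smallest p. One gene that this rule names is not reported here. The log2 CPM used for the most alike genes had a prior count of 2. Replicate libraries differed by more than sampling noise (lowest chi-square 41.0 per degree of freedom). P-values weigh the group difference against the spread between these libraries, and the number of mice in each library is not given.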

Additional observations from a re-analysis of the deposited data

How the results depend on the processing

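No member was called under any alternative, and Axl and Gas6 kept their sign in all 18. The sign of Mertk turned with library totals (0.031), limma voom (0.056), voom with library weights (0.0038), thinning to the shallowest total (0.0087) and without both shallow libraries (0.17), and it ranged from -0.12 to 0.079 with 1 library left out. That of Pros1 ranged from -0.093 to 0.096 with 1 library left out. The counts of called genes were unstable, from 1 to 15 higher and 1 to 35 lower with 1 library left out, the highest of each without control 3. In the order higher and lower they were 60 and 42 with no filter, 49 and 34 in DESeq2, 9 and 6 in voom, 1 and 1 in edgeR without the robust option, 9 and 30 without both shallow libraries, and 4 lower after thinning. Voom with library weights called 2 higher. The replicate block called 16 higher and 9 lower and gave Axl 0.68 (edgeR adjusted p = 0.9996). Correlations across genes between the deviations of same-numbered libraries were 0.42, -0.40 and -0.15 for replicates 1, 2 and 3. The highest of all was 0.57, between control 3 and knockout 2, the shallow libraries. Each deviation is taken from a mean of 3 libraries that differ in depth, so these correlations cannot show whether the numbers pair the libraries. The call of Atg7 did not hold with the robust option off (edgeR adjusted p = 0.0660), nor when any 1 library but control 3 was left out (0.0527 to 0.135). The cause of these changes was not tested. Depth limits Axl and Gas6 most in control 3, where 1 read is 0.786 CPM.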

Other observations

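Disease-associated microglia genes other than Axl were read as a list, since Axl belongs to that set. All 17 were tested, 11 were above 0, and the median log2 fold change was 0.09. EdgeR called 0, though unadjusted p-values below 0.05 were found for 6 higher and 1 lower gene. Over all 15787 genes tested, 370 were higher and 312 lower at an unadjusted edgeR p below 0.05. DESeq2 called 1 higher, beside 0.527% of all its genes in either direction, and voom 0. The lysozyme gene Lyz2 had 153, 249 and 124 CPM among controls, against 337, 300 and 384 CPM among knockouts (log2 fold change 0.95, SE 0.23, adjusted p = 0.365 in edgeR and 0.00318 in DESeq2). Its reads can be shared with the paralog Lyz1. Gpnmb, a lysosomal glycoprotein gene, had 0.789, 5.03 and 0 CPM among controls, against 41.6, 19.2 and 16.3 CPM among knockouts, a difference of 3.36 on the log2 scale with SE 0.99 (edgeR adjusted p = 0.999). The cystatin gene Cst7 had 24.8, 31.8 and 28.3 CPM among controls, against 51.7, 55.1 and 35.1 CPM among knockouts, and the ferritin gene Fth1 had a log2 fold change of 0.58 (SE 0.16). These 4 genes had the smallest p-values of the list, and they were its 4 genes in which all 3 knockouts lay above all 3 controls (6.59% of all genes tested). In 1 gene of the list all 3 knockouts lay below all 3 controls (4.47% of all genes). That was Csf1, the growth factor gene of microglia, named after its value was seen, with 20.4, 26.7 and 21.2 CPM among controls, against 16.1, 11.7 and 16.0 CPM among knockouts, or -0.64 on the log2 scale with SE 0.26 (edgeR adjusted p = 0.999). Spp1, also named after its value was seen, had 22.7, 92.6 and 83.3 CPM among controls, against 41.7, 27.0 and 27.8 CPM among knockouts. It differed by -1.02 (SE 0.57, edgeR adjusted p = 0.999), and control 1 lay below every knockout. Apoe, named in the same way, was higher, with 326, 815 and 438 CPM among controls, against 1695, 1277 and 701 CPM among knockouts. Its log2 fold change was 1.22 (SE 0.52, edgeR adjusted p = 0.999), and knockout 3 lay below control 2. The border macrophage and neutrophil marker sums given beside Axl differed between the same libraries, and their part in these values was not tested.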
